A study of Mus musculus with 6 samples.

Results

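Macrophages and other phagocytes clear dying cells through receptors that read an eat-me signal, above all phosphatidylserine on the outer face of the membrane, and through scavenger receptors that bind modified lipoproteins, matrix fragments and cell debris. The 10 genes described here are the TAM receptor tyrosine kinases Mertk, Axl and Tyro3, the bridging ligands Gas6 and Pros1 that join these receptors to phosphatidylserine, the engulfment receptors Lrp1 and Megf10, and the scavenger receptors Stab1, Msr1 and Scarb1. They were looked up by gene symbol in a list drawn up by known role. No measured value enters that rule, although the list was made with earlier results of these data known. All 10 were among the 14016 rows of the deposited gene table, of which 1 has no gene symbol. In skeletal muscle, this machinery is known for removing necrotic fibres and spent neutrophils after injury.

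Whole quadriceps muscle was taken for RNA sequencing from 3 WT mice and 3 GATA-1 mutant mice, 7 days after volumetric muscle loss, an injury in which a piece of the muscle is cut out. The defect received no implant in either genotype, only saline. The WT mice were C57BL/6 females aged 10 to 12 weeks, whereas age and sex of the mutants are not stated separately in the sources used here. The GATA-1 mutants are the ΔdblGATA line, in which a paired GATA-binding site in a promoter of Gata1 is deleted in the germline, so that eosinophils are missing from all tissues throughout life. The table lists no Gata1, which leaves no check of the genotypes by the targeted gene.

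The values used are 1 pooled number per gene, the authors' mean log2 CPM (read counts relative to the total of a library, CPM, on a log2 scale) over the samples of their fit. The table does not name the samples that were averaged, and holds no value per mouse. Hence no mean and SD per genotype, no standard error and no comparison of the genotypes are given, the depth of each library is unknown, and every difference between genes below is a description with no test. The fit may have held samples beyond these 6 muscles, so the means may not be those of the 6 alone, and they do not separate WT from mutant muscle. In bulk tissue fewer cells of a type and less RNA per cell cannot be told apart. Over all genes the mean log2 CPM ran from -4.08 to 15.03 with a median of 4.03, and 1198 genes had a mean below 0, that is below 1 CPM. The study's filter asked for more than 1 CPM in 3 or more samples, so for those genes at least some samples lay under that limit. If only these 6 samples were averaged and 3 of them passed the filter, the other 3 would have to average -8.15 log2 CPM or less for the lowest gene. Since long transcripts collect more reads at the same number of molecules, levels of different genes were compared per kilobase (kb) of transcript. This is the mean log2 CPM minus the log2 of the length of the longest coding transcript in kb. That length was chosen after seeing the data, and the planned lengths were those of the longest transcript and of the coding sequence. Ranges and percentiles on the CPM scale are given beside the levels per kb and depend on transcript length as well.

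The labelled tissue was visible in its markers. All 7 markers of skeletal muscle fibres were listed, from 10.70 (Mb) to 14.65 (Myh4) mean log2 CPM. Of 7 macrophage markers 6 were listed, from 4.40 (Itgam) to 9.12 (Lyz2), with Adgre1 not listed, and all 4 endothelial and all 4 fibro-adipogenic markers were listed as well. Only Ear2 of 8 eosinophil markers was listed, at 0.13, and of 5 neutrophil markers only S100a8 and S100a9 were, at 0.52 and -0.50. All 3 mast cell markers were listed, at 0.57 (Cpa3), 1.42 (Kit) and 1.79 (Mcpt4). As the means do not separate WT muscle from that of mutants without eosinophils, they do not give the level of eosinophil markers in WT muscle. A gene that is not listed has no value here, so its level is unknown, and why it is missing was not tested. Which of these cells carried the transcripts described below was not tested either.

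The 10 genes covered a wide range. On the CPM scale their means ran from 2.05 for Tyro3 to 8.29 for Lrp1, with a median of 5.08 against 4.03 over all genes, and 6 of the 10 lay above the median of all genes. Per kb of transcript they ran from -0.10 for Tyro3 to 6.10 for Gas6, a span of 73.7-fold, with a median of 3.38 against 2.28 over the 13955 genes that have a transcript length, and again 6 of 10 lay above the median of all genes. The same genes were above it on both scales: Gas6, Axl, Lrp1, Scarb1, Pros1 and Stab1. Mertk, Msr1, Megf10 and Tyro3 lay below it on both.

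**Figure D1:**
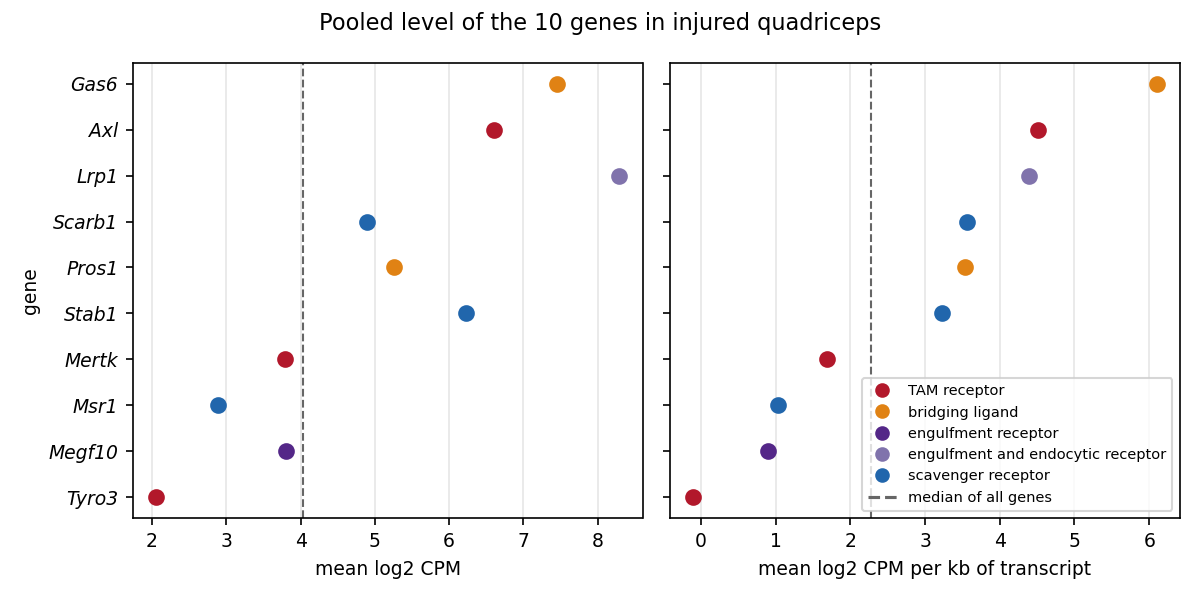
Each point is the authors' pooled mean for 1 gene, as mean log2 CPM on the left and as mean log2 CPM per kb of transcript on the right, coloured by role, with the median of all genes dashed. Gas6, Axl, Lrp1, Scarb1, Pros1 and Stab1 lie to the right of the dashed line in both panels, and Tyro3 is lowest in both. No error bars are drawn because the table holds 1 value per gene.

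The TAM receptors are single-pass tyrosine kinases that dampen inflammatory signalling while they drive uptake. Axl, which binds Gas6 and is known to be induced in inflamed tissue, had a mean of 6.61 log2 CPM, equal to a geometric mean of 97.7 CPM, and 4.52 per kb. Mertk, the receptor most closely tied to steady clearance of dead cells by resident macrophages, had a mean of 3.79 log2 CPM, or 13.8 CPM, and 1.68 per kb. Tyro3, best known from the nervous system and from dendritic cells, had a mean of 2.05 log2 CPM, or 4.15 CPM, and -0.10 per kb. The order was thus Axl, Mertk, Tyro3, with Axl 7.14-fold above Mertk and Mertk 3.45-fold above Tyro3 per kb. Their longest coding transcripts are of like length (4265 nt for Axl, 4302 nt for Mertk and 4460 nt for Tyro3), so the order was the same without the length scaling. Of the sum of the TAM receptor levels per kb on a linear scale, Axl made up 84.7%, Mertk 11.9% and Tyro3 3.44%. Among all genes with a length, 83.8% were lower than Axl per kb, 40.0% were lower than Mertk and 18.4% were lower than Tyro3.

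The bridging ligands are vitamin K-dependent secreted proteins. Gas6, which binds all TAM receptors and with the highest affinity Axl, had a mean of 7.45 log2 CPM (174.7 CPM) and 6.10 per kb, the highest value per kb of the 10 genes, and 94.5% of genes with a length were lower. Pros1, which encodes protein S, also an anticoagulant in plasma, and activates Mertk and Tyro3, had a mean of 5.25 log2 CPM (38.1 CPM) and 3.53 per kb. Per kb, Gas6 was 5.94-fold above Pros1 and made up 85.6% of their sum. Each ligand can be set beside the TAM receptors on the same scale. Gas6 was 2.99-fold above Axl, 21.4-fold above Mertk and 73.7-fold above Tyro3. Pros1 was 3.60-fold above Mertk and 12.4-fold above Tyro3, while Axl was 1.98-fold above Pros1. These are ratios of RNA in bulk muscle, and the amounts of ligand and receptor protein were not measured here. Adam10 and Adam17, proteases known to cleave TAM receptors from the cell surface, were both listed, at 3.52 and 3.27 per kb.

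Lrp1 is a very large endocytic receptor that takes up proteases, lipoproteins and, with calreticulin, dying cells. Its mean was 8.29 log2 CPM (313.6 CPM). Its longest coding transcript, at 14888 nt and 89 exons, is also the longest of the 10, and per kb its level was 4.40, above 82.7% of genes with a length. Per kb Axl and Lrp1 differed by 0.12 on the log2 scale, too little to put them in an order without an error, and the same holds for Scarb1 and Pros1 (0.04 apart) and for Msr1 and Megf10 (0.13 apart). Of 13 genes reported for the family of Lrp1 and its chaperone, 11 were listed (Lrp1b and Lrp2 were not), and per kb Lrp1 and Lrpap1, the chaperone of this family in the endoplasmic reticulum, at 4.32, headed the 11, 0.08 apart and likewise too close to order. Lrp10 stood at 3.84 and Vldlr at 3.83, with Lrp8 lowest at -2.999. Among known partners of Lrp1 in uptake, Calr, which encodes calreticulin, was listed at 7.37 per kb, Tgm2, a transglutaminase, at 4.92 and the matrix protein gene Thbs1 at 3.57.

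Megf10 encodes an engulfment receptor related to Draper of flies. It is known for clearance by astrocytes and, in muscle, for its expression in satellite cells. Its mean was 3.81 log2 CPM (14.0 CPM), and with a transcript of 7514 nt its level per kb was 0.90, above 28.9% of genes with a length. Per kb Mertk was 1.72-fold higher than Megf10. On the CPM scale Megf10 (3.81) and Mertk (3.79) were too close to order. Per kb of coding sequence Mertk was 0.18 higher on the log2 scale, so the gap between them depends on which length is used. Of the related genes, Pear1 was listed at 2.04 per kb and Megf11 at -2.35, so that Megf10 lay between them.

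**Figure D2:**
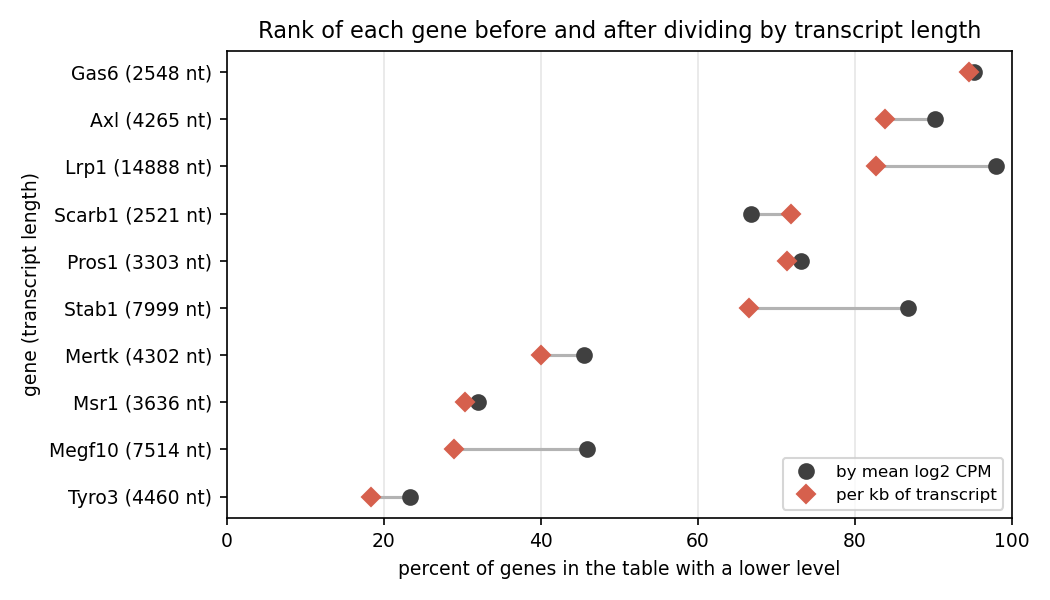
Percent of genes in the table with a lower pooled level than each of the 10 genes, by mean log2 CPM (circles, over 14016 genes) and per kb of transcript (diamonds, over 13955 genes), with transcript lengths beside the names. The genes with the longest transcripts, Lrp1, Stab1 and Megf10, shift furthest to the left, and Scarb1, with the shortest transcript, is the one gene that shifts to the right.

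Stab1 encodes stabilin-1, a class H scavenger receptor of macrophages and of some endothelium that binds phosphatidylserine and takes up extracellular matrix glycoproteins. Its mean was 6.23 log2 CPM (74.9 CPM) and 3.23 per kb, above 66.6% of genes with a length. Its relative Stab2, known from sinusoidal endothelium, had a mean of 0.88 log2 CPM and -2.16 per kb, with a transcript of similar length (8228 nt against 7999 nt). Scarb1, the class B receptor SR-BI, which takes lipid from high density lipoprotein and also binds phosphatidylserine, had a mean of 4.90 log2 CPM (29.9 CPM) and 3.57 per kb. In class B it was the lowest of the listed genes, below Cd36, a fatty acid and scavenger receptor that muscle fibres and capillaries also express, at 5.83 and below the lysosomal Scarb2 at 4.75. Msr1, the class A receptor SR-A of macrophages, had a mean of 2.89 log2 CPM (7.43 CPM) and 1.03 per kb. Of the other class A genes, Scara3 was listed at 2.94 and Scara5 at 2.65 per kb, both above Msr1, and Colec12 at 1.15, too close to Msr1 to order. Marco was not listed. Msr1 has a long untranslated part, since its longest coding transcript has 3636 nt and 1062 nt of coding sequence. Per kb of coding sequence its level was 2.81 against 2.21 for Mertk, so the order of these 2 genes depends on which length is used.

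Across all scavenger receptor classes 17 of 20 genes were listed, with Marco, Olr1 and Ager not listed. Their median per kb was 2.75. In the order from the highest, Scarb1 took place 4 and Stab1 place 5, after Cd36, Cd68 (4.75) and Scarb2. The order of Scarb1 and Stab1 depends on the scale. Per kb of the longest transcript they stood at 3.27 and 3.23, and on the CPM scale Stab1 was higher (6.23 against 4.90). Per kb, Msr1 and Megf10 lay close to Colec12 and to each other, with only Cd5l (-0.05) and Stab2 below all 3 of them. Cd163, the haemoglobin-haptoglobin receptor, was listed at 1.38 per kb and Clec7a, which encodes dectin-1, at 2.84.

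The 10 genes belong to a longer chain from recognition to digestion. Of 21 other receptors for apoptotic cells and bridging molecules, 19 were listed, with a median of 4.11 per kb. The complement genes C1qa, C1qb and C1qc stood at 6.80, 6.42 and 6.22, the annexin gene Anxa5 at 6.56, and Mfge8, the bridging ligand for integrins, at 5.45. Gas6 was close to Anxa1 (5.98) and C1qc, while Pros1 lay below Mfge8. The integrin receptor genes Itgav and Itgb5 were listed at 3.08 and 4.11 and Itgb3 at 1.49. Timd4, a phosphatidylserine receptor of resident macrophages, was listed at -0.42 mean log2 CPM, and Havcr1 and Adgrb1 were not listed.

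All 10 genes of engulfment signalling were listed, with a median of 1.69 per kb, below that of all genes. The small GTPase gene Rac1 stood at 5.55 and its exchange factor gene Dock1 at 1.43. Elmo1 and Elmo2 stood at 0.92 and 2.51, Crk at 4.46 and Crkl at 3.03. Of the 10 genes, 4 lay above the median of all genes: Rac1, Crk, Crkl and Elmo2. All 10 find-me and don't-eat-me genes were listed with a median of 2.93, among them Sirpa at 4.30 and its ligand gene Cd47 at 3.38. All 16 genes of digestion and sterol handling were listed with a median of 4.12, led by the lysosomal membrane gene Lamp1 at 7.55. The sterol-sensing receptor genes Nr1h2 and Nr1h3, known to induce Mertk after uptake, stood at 4.40 and 3.60, and the sterol exporter Abca1 at 2.63.

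**Figure D3:**
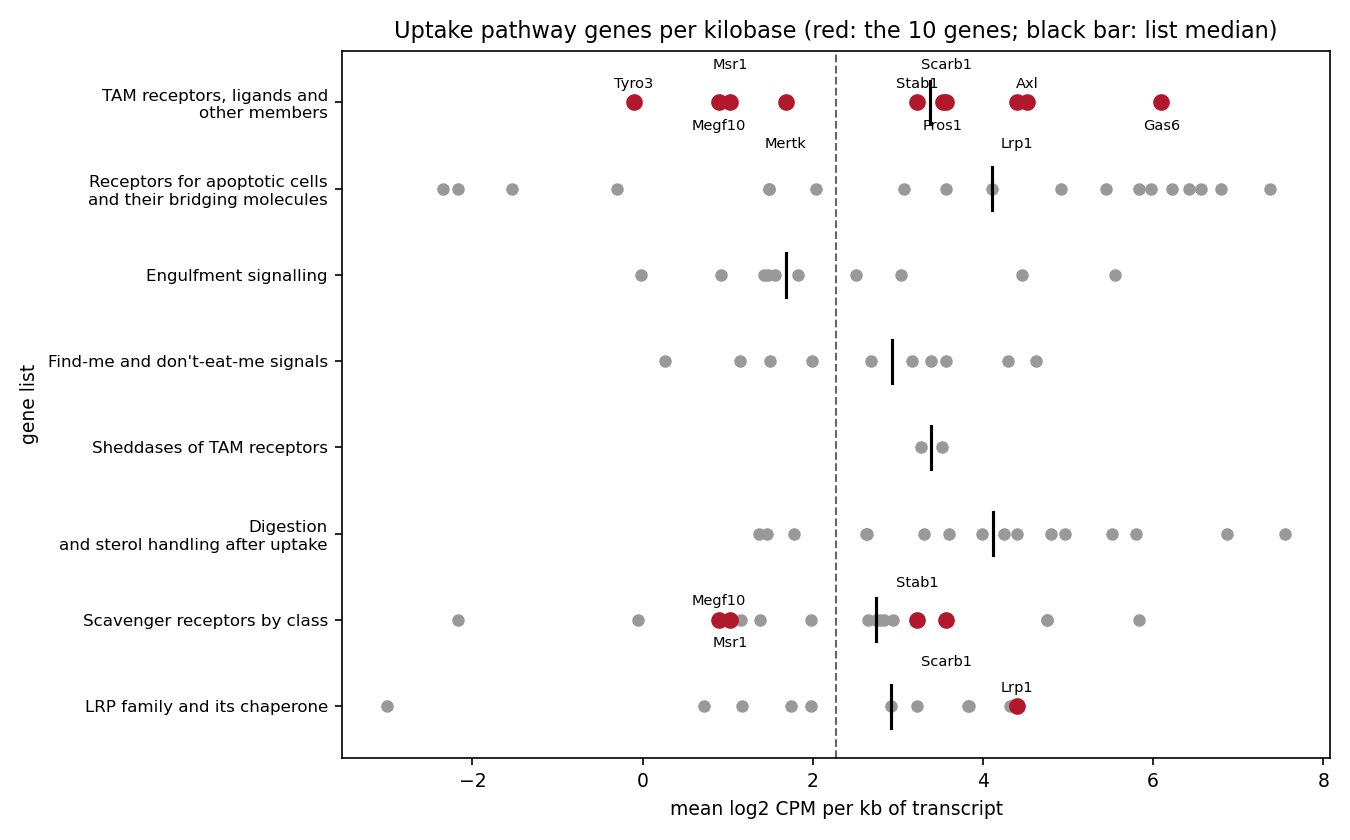
Pooled mean log2 CPM per kb of transcript for the listed and reported genes of each pathway list, with the 10 genes in red and named, the list median as a black bar and the median of all genes dashed. Axl and Lrp1 sit close together, Gas6 stands apart to their right, and Lrp1 and Lrpap1, 0.08 apart, are the rightmost of the 11 plotted genes of their family.

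Features that the choice of genes did not use were read from the GENCODE M21 annotation. The genes lie on 8 chromosomes, with Mertk and Tyro3 both on chromosome 2, Gas6 and Msr1 both on chromosome 8, Scarb1 on 5, Axl on 7, Lrp1 on 10, Stab1 on 14, Pros1 on 16 and Megf10 on 18. Their longest coding transcripts had a median of 4283.5 nt against 3138 nt over all genes with a length, and 8 of 10 were longer than that median. They ranged from 2521 nt (Scarb1) to 14888 nt (Lrp1), and the number of exons from 9 in Msr1 to 89 in Lrp1, with 69 in Stab1. Sharing of sequence matters here because the reads were assigned to transcripts by their short words. Of the 31-base words of each longest coding transcript, 0 occurred in another gene for Mertk, Axl, Tyro3, Pros1, Lrp1, Megf10 and Scarb1. For Msr1 the share was 0.111%, for Gas6 0.278% and for Stab1 1.03%. The shared words of Gas6 were all with Tmem255b and those of Stab1 all with Nt5dc2, genes that overlap them on the opposite strand. Both neighbours are in the table, at 1.49 (Tmem255b) and -2.998 (Nt5dc2) mean log2 CPM, and whether the counting used strand is not given in the sources used here.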

How the data were processed

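Poly(A) RNA of injured quadriceps was sequenced as paired-end reads. The authors pseudoaligned them with kallisto (version not given in the sources used here), summed transcripts to genes, computed CPM (counts scaled to library size) with edgeR, dropped genes without more than 1 CPM in 3 or more samples, and log transformed and TMM-normalized the values for limma. The submitters' processing notes name the build GRCm39. The deposited log2 values used here are the authors' mean log2 CPM of each gene, 1 pooled value per gene. The other 5 columns of values hold the authors' own comparison of the genotypes (fold change, moderated t, p-values and log odds) and were not used. The planned comparison of genotypes per mouse was therefore not made.

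Symbols were matched to GENCODE M21, 13458 directly and 497 through another symbol, so that 99.6% of genes had a length. As M21 is on GRCm38, no coordinates are printed. Percentiles give the share of genes with a lower level. The calculations were tested on simulated data. Python 3.11.15, pandas 2.3.3 and scipy 1.17.1 were used. The genes, pathway lists and markers were chosen with earlier results of these data known. One gene of the lists is not reported here. All 10 genes and any gene of those lists could be named, and Tmem255b and Nt5dc2 were added after the values had been seen because they overlap Gas6 and Stab1.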

Additional observations from a re-analysis of the deposited data

How the results depend on the processing

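No paired analysis was possible because the table holds 1 pooled value per gene. For the same reason another pseudocount, a filter on values per sample, the replicate number as a block and leaving out each mouse were not run. The median percentile of the 10 genes by mean log2 CPM was 70.0 among all genes. It was 69.5 among genes with a RefSeq protein, 64.6 among genes whose mean reached 1 log2 CPM, and 68.6 per kb of the longest transcript. Per kb of the longest coding transcript, a scale chosen after seeing the data, it was 68.9. Of the 45 pairs among the 10 genes, 39, 38 and 37 kept the order they have on the CPM scale when levels were taken per kb of the longest transcript, of the longest coding transcript and of coding sequence. Gas6 stood above Pros1, and Axl above Mertk and Mertk above Tyro3, on each of these scales. With no value per mouse and no depth, the precision of every level is unknown.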
